A study of Mus musculus with 6 samples.

Results

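Glutathione transferases and the genes that the transcription factor NRF2 switches on were followed in the small intestinal mucosa of mice lacking alkaline sphingomyelinase (alk-SMase). The set comprised 10 genes of the 22700 rows in the deposited expression table, of which 12397 could be given a settled gene name. As deposited, the identifiers stood beside the values of other genes, and they were put back by rank. It was put together by function: the glutathione transferases Gsta1, Gsta4, Gstm1, Gstm3 and Gstp1, the NRF2 targets Gclc, Nqo1, Akr1b8 and Txnrd1, and the glutathione peroxidase Gpx2. All 10 genes had a row and all 10 passed the filter on low values.

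The KO group held 3 mice with the alk-SMase gene Enpp7 knocked out (libraries K79S, K82S and K86S, replicates 1 to 3) and the WT group held 3 wild-type mice (W83S, W89S and W90S, replicates 1 to 3), all C57BL/6. The knockout removed exon 2 by Cre-loxP recombination and shifted the reading frame. Each library was made from the RNA of 1 mouse, taken from the mucosa of the middle small intestine, and the ages are not given in the sources used here. Levels are in FPKM, fragments scaled to transcript length and to the mapped reads of the library, so they can be compared between genes of different length.

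Enpp7 itself had 605, 129 and 669.7 FPKM in the KO libraries and 406, 667 and 495 FPKM in the WT libraries. FPKM counts reads from the whole gene, and the loss of exon 2 cannot be read from it, so the directions given here rest on the group labels alone. The paper lists Akr1b8 as up-regulated, while under these labels Akr1b8 was lower in every KO library than in any WT library. Akr1b8 is the only gene set beside the paper's list here, so the disagreement should not be taken as limited to it. Whether the labels or the sign of the paper's list are inverted was not tested, and every direction given here depends on it. The enterocyte markers summed to 24776 to 40625 FPKM in every library. W83S stood apart: 8 gastric marker genes summed to 41954 FPKM there against at most 6.22 FPKM in any other library. The 3 pancreatic acinar genes with a row, of 10 listed, summed to 10209 FPKM there against at most 83.8 FPKM. Nearly all of that sum was Clps, at 10194 FPKM, while Cela1 had 12.4 FPKM and Ctrb1 2.11 FPKM in W83S. K82S and W89S had the highest sums of 3 distal small intestine markers (Slc51a, Slc51b and Osr2), with 1625 and 888 FPKM against 307 to 672 FPKM in the other 4 libraries, and the lowest sums of 5 proximal markers, with 118 and 207 FPKM against 377 to 618 FPKM. Lct made up most of each proximal sum, and Lct, Gata4 and Slc46a1 were lowest in K82S and W89S. Slc40a1 and Cybrd1 did not follow: both were highest in W83S, at 7.08 and 6.05 FPKM, and Slc40a1 had 5.11 FPKM in K82S. Results that rest on W83S or K82S are therefore given with and without them, and the part of stomach, pancreas or position along the gut in any result was not tested. In bulk tissue, fewer cells of a type and less RNA per cell cannot be told apart.

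NRF2, encoded by Nfe2l2, is held in the cytoplasm by KEAP1 and marked for degradation. Electrophiles and oxidants modify KEAP1, NRF2 then accumulates in the nucleus, and with small MAF proteins it binds antioxidant response elements of genes for detoxification and glutathione metabolism. Glutathione transferases join glutathione to electrophiles, and the small intestine, which meets diet-derived electrophiles first, is known for high levels of alpha, mu and pi class enzymes.

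The glutathione transferase genes of the mouse arose by duplication, and several of the 10 genes have near-identical copies. The reads were 50 bases long, so the share of a gene's 50-base stretches that also occur in another annotated transcript was counted (GENCODE M21 transcripts on GRCm38, the assembly that is also named mm10). Of the 905 stretches of Gsta1, 819 (90.5%) occurred elsewhere, most of them in Gm3776. The share was 33.7% for Gstp1, 28.8% for Gstm3, 18.9% for Gstm1, 6.03% for Gpx2 and 2.90% for Akr1b8. Stretches were pooled over all annotated transcripts of a gene, so a share can understate the overlap of a single mature transcript. Gpx2 had 3218 stretches over a gene span of 3222 bases. Gstp1 had 1737, beside 630 coding bases that are 98.1% identical to those of Gstp2. Shares within single transcripts were not counted. Gsta4, Gclc, Nqo1 and Txnrd1 shared none. Apart from Gsta2 and Gstp2, the copies named here were chosen after their values were seen. The sequences below are coding strand, 5′ to 3′, and are shown because only a read that covers a difference can be told apart from the copy. Coding bases 1 to 120 of Gsta1 are set beside Gm3776 and Gsta2, with bases that differ from Gsta1 in capitals.
Gsta1: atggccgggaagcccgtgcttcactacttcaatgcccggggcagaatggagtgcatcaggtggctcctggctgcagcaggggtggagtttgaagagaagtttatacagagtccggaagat
Gm3776: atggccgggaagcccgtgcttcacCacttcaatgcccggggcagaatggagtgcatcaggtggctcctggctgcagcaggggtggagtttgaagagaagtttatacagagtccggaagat
Gsta2: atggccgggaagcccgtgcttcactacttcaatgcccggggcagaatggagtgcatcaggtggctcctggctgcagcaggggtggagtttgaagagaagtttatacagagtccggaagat

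In this stretch Gm3776 differed from Gsta1 by 1 base and Gsta2 by 0 bases. Coding bases 301 to 420 of Gstp1 are set beside its neighbour Gstp2 and the processed pseudogene Gstp-ps on chromosome 1, with bases that differ from Gstp1 in capitals.
Gstp1: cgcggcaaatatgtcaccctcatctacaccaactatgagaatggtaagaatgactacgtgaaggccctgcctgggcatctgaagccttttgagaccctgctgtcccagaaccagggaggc
Gstp2: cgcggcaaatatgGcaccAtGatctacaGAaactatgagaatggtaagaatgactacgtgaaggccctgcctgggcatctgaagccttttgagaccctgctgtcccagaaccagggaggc
Gstp-ps: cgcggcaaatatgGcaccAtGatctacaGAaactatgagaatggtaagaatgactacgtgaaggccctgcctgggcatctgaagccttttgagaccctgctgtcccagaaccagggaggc

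Gstp2 and Gstp-ps were the same over this stretch and each differed from Gstp1 by 5 bases. Coding bases 1 to 120 of Gpx2 are set beside the processed pseudogene Gpx2-ps1 on chromosome 7. The stretch ends in the in-frame tga that the selenoenzyme Gpx2 reads as selenocysteine, and capitals mark the 3 bases that differ.
Gpx2: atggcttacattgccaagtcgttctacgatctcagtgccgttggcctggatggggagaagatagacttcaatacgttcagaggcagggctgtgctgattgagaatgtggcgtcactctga
Gpx2-ps1: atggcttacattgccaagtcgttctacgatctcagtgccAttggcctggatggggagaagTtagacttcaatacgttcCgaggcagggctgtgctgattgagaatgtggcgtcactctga

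**Figure D1:**
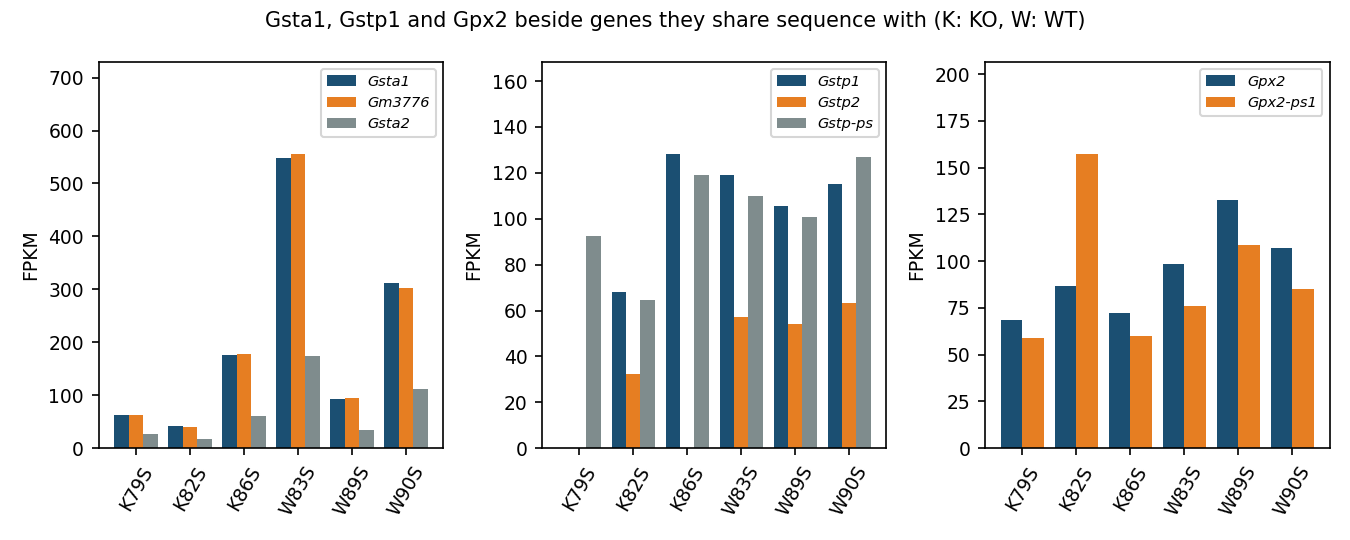
FPKM (vertical axes) of Gsta1, Gstp1 and Gpx2 beside genes that share sequence with them, 1 group of bars per library, K for KO and W for WT. Gsta1 and Gm3776 have nearly equal bars in every library, Gstp1 and Gstp2 are listed at 0 in K79S where Gstp-ps has 92.4 FPKM, and Gpx2-ps1 exceeds Gpx2 in K82S only.

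The alpha class genes Gsta1 and Gsta4 had their highest level in W83S and their lowest in K82S. Gsta1, an enzyme that conjugates glutathione to a broad range of electrophiles (ENSMUSG00000074183.3, plus strand, chr9:78230656-78242684), had 62.8, 41.4 and 175.9 FPKM in the KO libraries and 547, 93.7 and 312 FPKM in the WT libraries. K86S lay above W89S, so the groups overlapped. The log2 fold change, KO minus WT on the log2(FPKM + 1) scale as for all fold changes here, was -1.70 (SE 0.76, 95% interval -3.52 to 0.13, limma adjusted p = 0.397). The estimate was -1.14 without W83S and -1.25 without K82S. The copy Gm3776 matched Gsta1 in 667 of 669 coding bases and had 61.8, 39.7 and 178 FPKM in KO and 557, 94.1 and 303 FPKM in WT. The ratio of Gsta1 to Gm3776 was 0.984 to 1.04 in the 6 libraries, so these values do not tell the genes apart. Gsta2, 97.6% identical to Gsta1 in its coding bases, stood at 17.2 to 61.4 FPKM in KO and 33.5 to 174 FPKM in WT, with a log2 fold change of -1.5 (SE 0.69, limma adjusted p = 0.404).

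Gsta4, the alpha class enzyme with a preference for 4-hydroxynonenal and other products of lipid peroxidation (ENSMUSG00000032348.6, plus strand, chr9:78182774-78209349), shared no 50-base stretch with another gene. Its levels were 35.2, 31.3 and 66.8 FPKM in KO and 408, 67.6 and 117 FPKM in WT. The groups did not overlap, though K86S and W89S differed by less than 1 FPKM and the order of that pair turned when the libraries were scaled to the same sum or by the median of ratios. The log2 fold change was -1.79 (SE 0.66, 95% interval -3.37 to -0.21, limma adjusted p = 0.393), and the exact permutation test, two-sided, gave p = 0.1, the smallest p that 3 against 3 libraries allow. Without W83S the estimate was -1.07, and over the alternatives tried the adjusted p ranged from 0.160 to 0.760.

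The mu class genes overlapped between the groups and had the same order of libraries at the low end. Gstm1, a major mu class enzyme (ENSMUSG00000058135.12, minus strand, chr3:108012255-108017973), had 46.5, 19.5 and 121 FPKM in KO and 84.9, 29.8 and 130.3 FPKM in WT. Gstm3, its neighbour and 79.9% identical in coding bases (ENSMUSG00000004038.9, minus strand, chr3:107963696-107969283), had 137, 37.7 and 229.7 FPKM in KO and 279.9, 75.6 and 355 FPKM in WT. Both genes were lowest in K82S and next lowest in W89S, the libraries with the highest distal and lowest proximal marker sums. Fitted log2 fold changes were -0.52 for Gstm1 (SE 0.76, 95% interval -2.35 to 1.31, limma adjusted p = 0.793) and -0.88 for Gstm3 (SE 0.81, 95% interval -2.82 to 1.07, limma adjusted p = 0.663). Without K82S these estimates were 0.11 and -0.14. The pseudogene Gstm2-ps1, which shares stretches with Gstm1, and Gm8834, which shares them with Gstm3, were also lowest in K82S, at 8.01 and 8.10 FPKM.

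Gstp1, the pi class enzyme (ENSMUSG00000060803.5, minus strand, chr19:4035407-4037985), was listed at 0 in K79S and had 68.0 FPKM in K82S and 128 FPKM in K86S. The WT libraries had 119, 106 and 115 FPKM. K86S lay above all 3 WT libraries and the other KO libraries lay below them, so the groups overlapped. The log2 fold change was -2.46 (SE 1.72, 95% interval -6.57 to 1.65, limma adjusted p = 0.549), and without K79S it was -0.27 (SE 0.31, limma adjusted p = 0.831). Over all alternatives the adjusted p of Gstp1 ranged from 0.240 to 0.831. Gstp2, 98.1% identical to Gstp1 in coding bases, was listed at 0 in K79S and K86S, had 32.3 FPKM in K82S, and had 57.3, 54.1 and 63.4 FPKM in WT. The pseudogene Gstp-ps had 92.4, 64.4 and 119 FPKM in KO and 110, 101 and 127 FPKM in WT, and so was not at 0 in the library where both genes were. Whether the zeros reflect absent transcripts or an estimate that failed among the copies was not tested. The check of the restored names by decimals, described below, does not back those of Gstp1 and Gstp2.

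Gclc, the catalytic subunit of the rate-limiting enzyme of glutathione synthesis (ENSMUSG00000032350.9, plus strand, chr9:77754535-77794485), had 18.5, 12.3 and 23.7 FPKM in KO and 18.4, 19.6 and 11.1 FPKM in WT. The groups overlapped throughout, with the highest level in a KO library and the lowest in a WT library. Its log2 fold change was 0.13 (SE 0.30, limma adjusted p = 0.871), and the 95% interval of -0.59 to 0.85 leaves room for a difference in either direction.

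The reductases Nqo1 and Akr1b8 had all KO libraries below all WT libraries, and their largest WT value came from W83S in both. Nqo1, which reduces quinones by a two-electron step (ENSMUSG00000003849.8, minus strand, chr8:107388225-107403206), had 9.92, 14.8 and 15.0 FPKM in KO and 84.4, 18.2 and 18.2 FPKM in WT. W83S was 4.63 times the mean of the other WT libraries. For Nqo1 the fitted log2 fold change was -1.17 (SE 0.59, limma adjusted p = 0.423) with all libraries and -0.45 (SE 0.23, limma adjusted p = 0.564) without W83S. Exact permutation of the group labels gave Nqo1 p = 0.1, and over the alternatives its adjusted p ranged from 0.244 to 0.762.

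Akr1b8, an aldo-keto reductase of lipid-derived aldehydes (ENSMUSG00000029762.6, plus strand, chr6:34354119-34368463), was the least abundant of the 10 genes, with 1.10, 3.56 and 1.54 FPKM in KO and 27.3, 4.07 and 4.22 FPKM in WT. W83S was 6.59 times the mean of the other WT libraries, the largest such ratio among the 10 genes. The log2 fold change was -1.65 (SE 0.70, 95% interval -3.31 to 0.02, limma adjusted p = 0.393), and -0.83 without W83S (limma adjusted p = 0.542). Without both W83S and K82S it was -1.16 (SE 0.17, limma adjusted p = 0.0335), which passed the thresholds. Over all alternatives its adjusted p ranged from 0.0335 to 0.760. With those libraries left out, 8.55% of all rows tested passed in the lower direction, so Akr1b8 was then 1 call among many. The NRF2 targets Cbr3 and Me1, named after their values were seen, were also high in W83S, at 61.4 and 5.51 times the mean of the other WT libraries. These were the highest such ratios among the 20 other NRF2 targets tested, and the next was 2.10 for Ephx1. Srxn1 and Taldo1 were instead lowest in W83S, at 0.827 and 0.889 times that mean.

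Among the selenoenzymes, Txnrd1 was the steadiest gene of the set and Gpx2 was lower in each KO library than in any WT library. Txnrd1, the cytosolic thioredoxin reductase (ENSMUSG00000020250.10, plus strand, chr10:82833951-82897712), had 20.6, 19.5 and 24.8 FPKM in KO and 22.5, 24.3 and 21.0 FPKM in WT. The highest library was 1.28 times the lowest, and the log2 fold change was -0.07 (SE 0.15, 95% interval -0.43 to 0.30, limma adjusted p = 0.871). Its sign turned under both scalings of the libraries.

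Gpx2, the gastrointestinal glutathione peroxidase, known from the crypts (ENSMUSG00000042808.8, minus strand, chr12:76792333-76795554), had 68.7, 86.4 and 72.2 FPKM in KO and 98.6, 133 and 107 FPKM in WT. W83S was the lowest WT library here, at 0.823 times the mean of the others. Its fitted log2 fold change was -0.56 (SE 0.19, 95% interval -1.01 to -0.11, limma adjusted p = 0.393), with exact permutation p = 0.1, and it was -0.65 without W83S and -0.66 without K82S. The adjusted p did not pass 0.05 under any alternative and ranged from 0.0818 to 0.760. The pseudogene Gpx2-ps1 had 58.7, 157 and 59.7 FPKM in KO and 76.1, 109 and 85.2 FPKM in WT. The ratio of Gpx2 to it was 1.17 to 1.29 in 5 libraries and 0.549 in K82S. Summed with Gpx2, the KO libraries had 127, 244 and 132 FPKM and the WT libraries 175, 242 and 192 FPKM, so the sums overlapped where Gpx2 alone did not. The sum of 4 crypt and proliferation markers was 22.5 to 57.5 FPKM in KO and 57.3 to 102 FPKM in WT, and its part in the Gpx2 values was not tested.

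**Figure D2:**
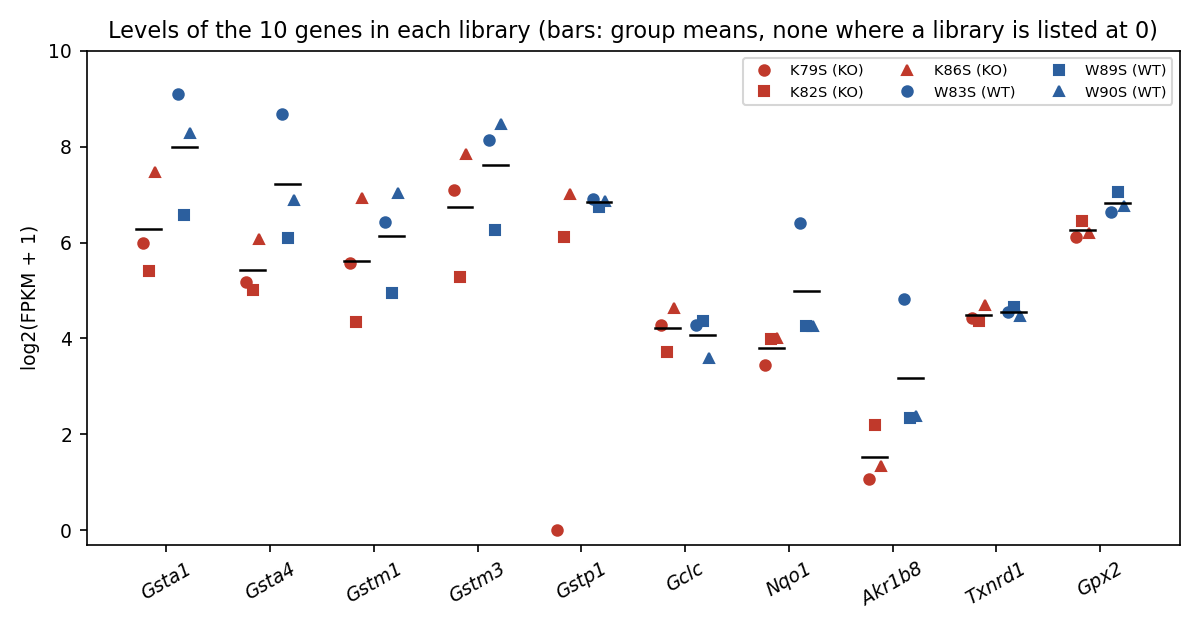
Levels of the 10 genes as log2(FPKM + 1) (vertical axis) in each KO (red) and WT (blue) library, with black bars at group means except where a library is listed at 0. The groups do not overlap for Gsta4, Nqo1, Akr1b8 and Gpx2, and W83S stands far above the other WT libraries for Gsta4, Nqo1 and Akr1b8.

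Read together against all rows tested, the KO values of the set lay mostly below the WT values, and no gene passed the thresholds. A gene was called when its Benjamini-Hochberg adjusted p from limma was under 0.05 and its fold change was above 1.5 or below the reciprocal. With all libraries 0 of the 10 genes were called, against 0.00764% of the 13089 rows tested. At an unadjusted p under 0.05, 2 genes (Gsta4 and Gpx2) were lower in KO and 0 were higher, against 9.64% and 2.87% of all rows. The groups did not overlap in 4 of the 10 genes, all with KO below, against 11.3% of all rows with all KO below and 5.9% with all KO above. Without K86S 7 genes had all KO below, against 15.5% of all rows, and without W89S 6 genes, against 17.4%. The estimate was below 0 for 9 of the 10 genes, against 57.7% of all rows. The median log2 fold change of the 10 genes was -1.03 against -0.06 over all rows, and it was -0.64 without W83S and -0.96 without K82S. Several of the genes vary together over the libraries, so they do not count as 10 separate observations. Some markers of other cells also differed by group. Of 6 immune markers 4 had a row: Cd74 (1511 to 1667 FPKM in KO and 544 to 734 FPKM in WT) and Cd3e (4.44 to 6.11 FPKM against 2.22 to 2.71 FPKM) were above WT in every KO library, while Ptprc and Jchain overlapped. The hepatocyte markers Alb and Ttr, the 2 of 5 with a row, summed to 2.10 to 6.54 FPKM in KO and 20.3 to 64.9 FPKM in WT. Their part in these counts was not tested.

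**Figure D3:**
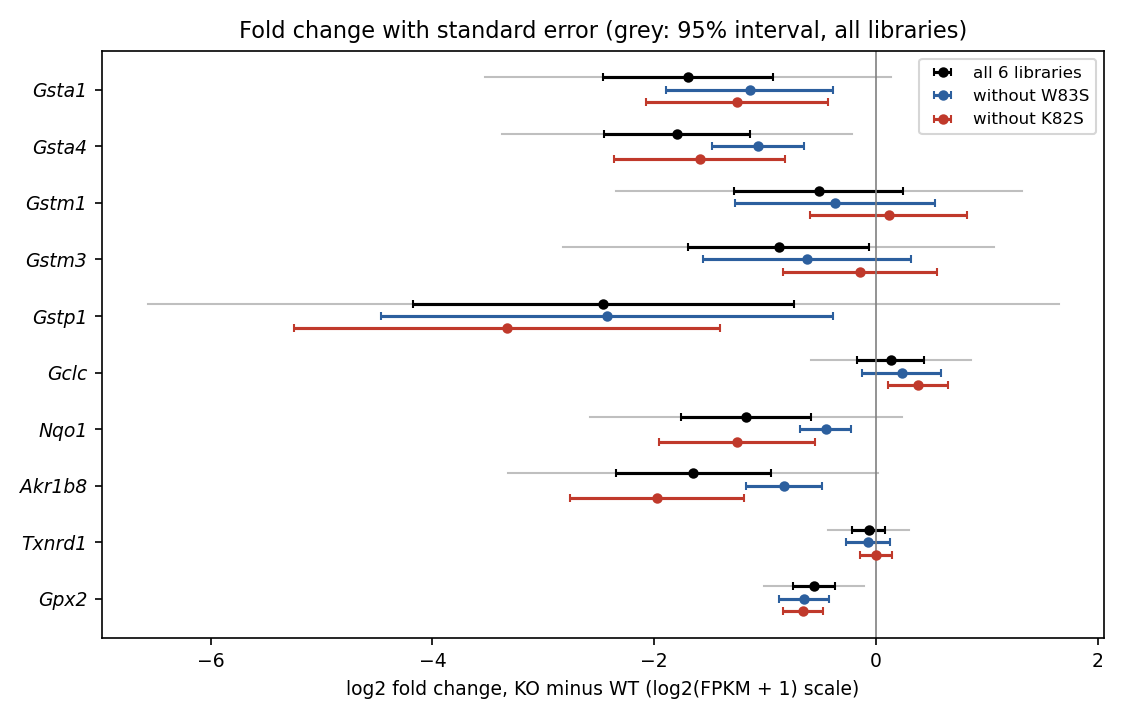
log2 fold change of each gene, KO minus WT on the log2(FPKM + 1) scale (horizontal axis), with SE as coloured bars for all 6 libraries (black), without W83S (blue) and without K82S (red), and the 95% interval for all libraries in grey. The estimates of Nqo1 and Akr1b8 move toward 0 without W83S, those of Gstm1 and Gstm3 move to near 0 without K82S, and Gpx2 and Txnrd1 have the narrowest intervals.

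Ordered by mean FPKM over the 6 libraries, Gsta1 (206) and Gstm3 (186) stood first, followed by Gsta4 (121), Gpx2 (94.2), Gstp1 (89.4) and Gstm1 (72). Nqo1 (26.8), Txnrd1 (22.1), Gclc (17.3) and Akr1b8 (6.96) had the lower levels. Of the 9 neighbouring pairs in this order, 2 kept it in every library, Gstm1 above Nqo1 and Txnrd1 above Gclc. The other 7 pairs kept it in 1 to 5 of the 6 libraries, so their places are within the spread between libraries.

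The genes fell into sets that varied together over the 6 libraries. On the log2(FPKM + 1) scale Pearson's r was 0.973 for Nqo1 and Akr1b8, 0.967 for Gstm1 and Gstm3, 0.941 for Gsta1 and Gsta4, and 0.928 for Gsta4 and Nqo1. The lowest was -0.25, for Gclc and Gpx2. These are descriptions of 6 points that share their libraries. Gstm1 and Gstm3 have 50-base stretches in common with each other and with other copies, while Gsta4 shares none. The part of shared reads in the r of Gstm1 and Gstm3 was not tested. For Nqo1, Akr1b8 and Gsta4, W83S lay 1.95, 1.86 and 1.76 SD above the mean of the gene. Their r values lean on that library, and r without it was not computed. Of the 11958 other named rows compared, those closest to the mean standardised level of the 10 genes were Mgat1 (0.985), Coq6 (0.982), Zadh2 (0.981), Paox (0.979) and Selenot-ps (0.979), each by Pearson's r over the 6 libraries. Mgat1 starts the formation of complex N-glycans, Coq6 acts in coenzyme Q synthesis and Paox oxidises polyamines. None of the 5 had a mean level near that of the abundant transferases, and Selenot-ps stayed between 0.801 and 1.15 FPKM.

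Summed over 22 glutathione transferase genes, the KO libraries had 880, 827 and 1556 FPKM and the WT libraries 2819, 1280 and 2196 FPKM. K86S lay above W89S, so the totals overlapped. The alpha class sum was 125, 91.0 and 306 FPKM in KO and 1134, 197 and 544 FPKM in WT, and its share of the total ran from 11.0% in K82S to 40.2% in W83S. Gm3776, whose values do not tell it apart from Gsta1, is not among the 22 genes. It had 61.8, 39.7 and 178 FPKM in KO and 557, 94.1 and 303 FPKM in WT. Sums and shares with Gm3776 included were not computed. The mu class sum was 217, 79.8 and 412 FPKM in KO and 446, 141 and 572 FPKM in WT, lowest in the 3 libraries with the highest distal marker sums (K82S, W89S and K79S). The 3 microsomal genes, membrane-bound enzymes of a separate family, summed to 295, 354 and 393 FPKM in KO and 544, 528 and 582 FPKM in WT. Here the groups did not overlap, with a mean of 348 FPKM (SD 49.4, n = 3) in KO against 551 FPKM (SD 28, n = 3) in WT, and W83S was not the highest library. Gsta1 and Gsta2 share 50-base stretches, as do Gstp1 and Gstp2, and how reads were divided between them is not given in the sources used here.

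**Figure D4:**
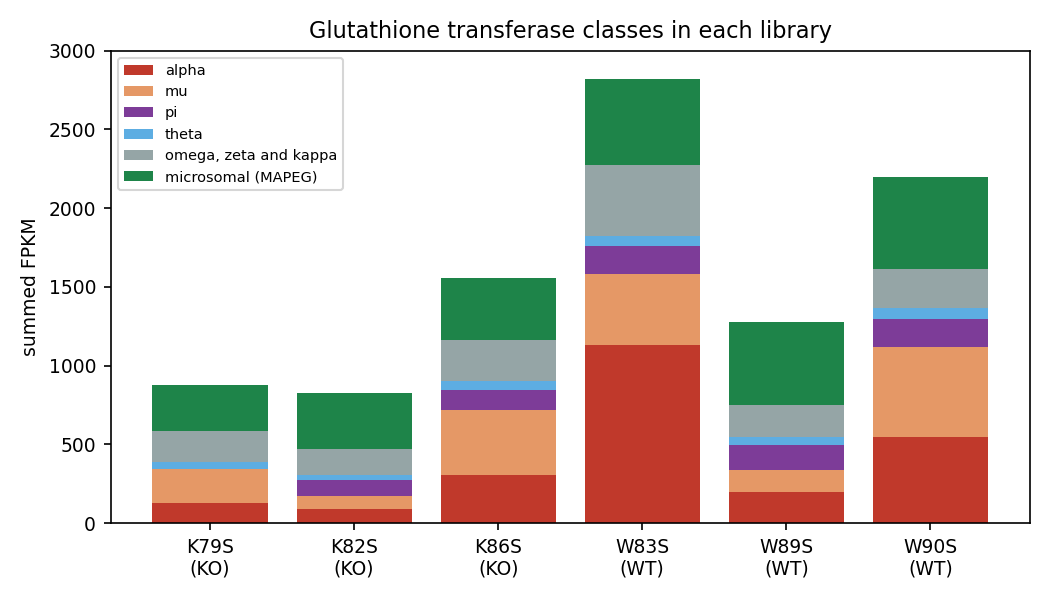
Summed FPKM of 22 glutathione transferase genes (vertical axis) in each library, stacked by class, without the Gsta1 copy Gm3776. The alpha class makes up 40.2% of the total in W83S and 11.0% in K82S, while the microsomal class is 295 to 393 FPKM in KO and 528 to 582 FPKM in WT.

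The remaining glutathione transferases also had estimates below 0. Of 22 listed, 17 had a row and were tested, and all 17 estimates were below 0, against 57.7% of all rows, with a median of -0.62. None was called with all libraries by limma, 5 had an unadjusted p under 0.05 in the lower direction and 0 in the higher, against 9.64% and 2.87% of all rows. The same 5 genes, Gsta3, Gstm5, Gstp2, Mgst2 and Mgst3, had all KO libraries below all WT libraries, against 11.3% of all rows. Mgst3, a microsomal transferase that also acts on lipid peroxides, stood between 214.7 and 299 FPKM in KO and between 372 and 440.2 FPKM in WT (log2 fold change -0.72, SE 0.20, limma adjusted p = 0.393). Mgst2, its relative that can form leukotriene C4, had 25, 29.7 and 36.5 FPKM in KO and 49.0, 43.3 and 55.7 FPKM in WT. The low mu class gene Gstm5 had 4.65, 5.55 and 7.99 FPKM in KO and 14.6, 11.9 and 11.9 FPKM in WT (log2 fold change -0.99, SE 0.20, limma adjusted p = 0.393). Unlike Gstm1 and Gstm3, Gstm5 was not lowest in K82S. The abundant Gsto1, an omega class enzyme, and Mgst1 overlapped between groups. Gstp2 passed the thresholds without K82S, where it is listed at 0 in both remaining KO libraries, and no fold is given for that reason. In that setting 8.88% of all rows passed in the lower direction.

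Genes of glutathione synthesis, recycling and export had estimates on both sides of 0. Of 13 listed, 9 were tested, 0 were called by limma, 0 had an unadjusted p under 0.05, and the median log2 fold change was 0.04. Ggt1, which cleaves extracellular glutathione at the brush border, had 379, 226 and 361 FPKM in KO and 259, 269 and 284 FPKM in WT. Gsr, the reductase that regenerates glutathione, had 49.9, 85.2 and 44.3 FPKM in KO and 49.8, 69.0 and 50.9 FPKM in WT, highest in K82S and W89S. The exporter Abcc2 had 67.4, 29.0 and 88.5 FPKM in KO and 53.7, 33.2 and 69.4 FPKM in WT. Gss alone of the 9 had all KO libraries below all WT libraries, against 11.3% of all rows, with a log2 fold change of -0.17 (SE 0.14, limma adjusted p = 0.601). Its closest libraries of the 2 groups, K82S and W83S, had 22.51 and 22.53 FPKM.

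For 20 other NRF2 targets tested of 21 listed, the median estimate was -0.25 on the log2 scale, or -0.07 when W83S was left out. None was called by limma, and 1 gene, Blvrb, had an unadjusted p under 0.05, in the lower direction, against 9.64% of all rows. Blvrb, a biliverdin reductase, had 7.84, 9.38 and 7.34 FPKM in KO and 13.6, 10.5 and 10.8 FPKM in WT (log2 fold change -0.45, SE 0.16, limma adjusted p = 0.393). With Ptgr1, Txn1 and Prdx1 it made 4 of the 20 genes with all KO below, against 11.3% of all rows. Among the most abundant targets, the ferritin heavy chain Fth1 had 1324, 1370 and 1673 FPKM in KO and 2942, 1584 and 2204 FPKM in WT, with K86S above W89S. The light chain Ftl1 had 284, 253 and 315 FPKM in KO and 309.6, 292 and 266 FPKM in WT, with a log2 fold change of -0.03 (SE 0.17, limma adjusted p = 0.954).

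The regulators of NRF2 themselves gave 0 calls by limma among 9 tested, 0 genes with an unadjusted p under 0.05, and a median log2 fold change of 0.11. Nfe2l2 had 46.6, 25.6 and 56.5 FPKM in KO and 63.0, 31.0 and 51.0 FPKM in WT (log2 fold change -0.18, SE 0.37, limma adjusted p = 0.855). Like the mu class genes it was lowest in K82S and W89S. Keap1 had 10.7, 9.61 and 9.17 FPKM in KO and 10.1, 9.93 and 13.4 FPKM in WT (log2 fold change -0.16, SE 0.16, limma adjusted p = 0.690). Of the abundant others, Bach1, a repressor at the same elements, had a log2 fold change of 0.26 (SE 0.28) and the autophagy adaptor Sqstm1 of 0.11 (SE 0.28). NRF2 is controlled mainly through protein stability, which RNA levels do not measure.

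Of 16 tested glutathione peroxidase, thioredoxin, peroxiredoxin and other antioxidant genes, 0 were called by limma with all libraries, and the median was -0.24. At an unadjusted p under 0.05, 4 were lower and 0 higher, against 9.64% and 2.87% of all rows. Gpx1, the ubiquitous glutathione peroxidase and the closest relative of Gpx2 in function, had 39.6, 134 and 50.7 FPKM in KO and 222, 163 and 252 FPKM in WT. Its log2 fold change was -1.68 (SE 0.46, limma adjusted p = 0.393), and without K82S, the KO library nearest to WT, it was -2.20 (limma adjusted p = 0.0319, with a range of 0.0319 to 0.760 over the alternatives). The ratio of Gpx2 to Gpx1 varied from 0.424 to 1.74 over the libraries. Prdx4, the peroxiredoxin of the endoplasmic reticulum, had 2.07, 4.41 and 2.46 FPKM in KO and 7.17, 5.88 and 7.16 FPKM in WT (log2 fold change -0.998, SE 0.23, limma adjusted p = 0.393), and Prdx2 had a log2 fold change of -0.53 (SE 0.15). Without K82S, 3 of these genes passed the thresholds (Gpx1, Prdx3 and Prdx4), beside the 8.88% of all rows that passed in the lower direction. With Gpx1, Prdx2, Prdx3 and Prdx4, the abundant Sod1 made 5 of the 16 genes with all KO below, against 11.3% of all rows. The abundant Prdx5 and Gpx4 overlapped.

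Of 9 other aldo-keto reductases tested, 0 were called by limma and 0 had an unadjusted p under 0.05, with a median log2 fold change of -0.29. Akr1b7, a relative of Akr1b8, had 76.5, 123 and 139 FPKM in KO and 111, 83.5 and 152 FPKM in WT, and did not show the high value of Akr1b8 in W83S. Akr1a1 alone of the 9 had all KO libraries below all WT libraries, against 11.3% of all rows, by a small margin, at 245 to 269 against 280.0 to 284 FPKM. Akr7a5 overlapped between groups.

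**Figure D5:**
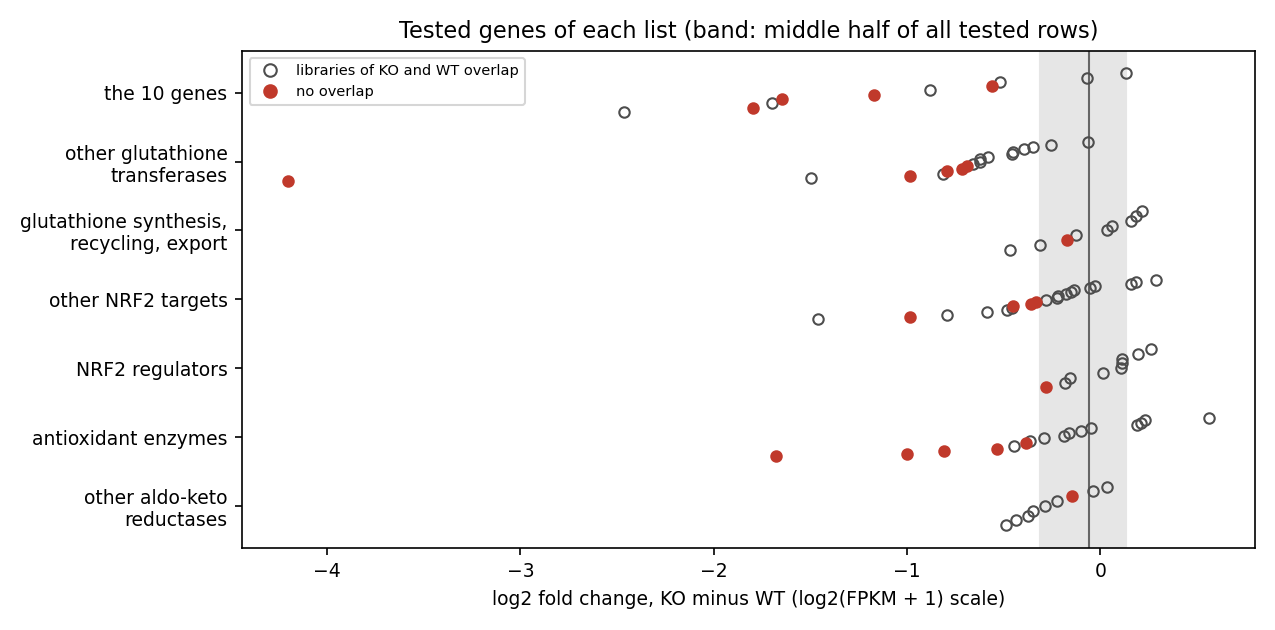
log2 fold change, KO minus WT on the log2(FPKM + 1) scale (horizontal axis), of every tested gene of each list, red where KO and WT libraries do not overlap, with the band from -0.31 to 0.13 holding the middle 50% of all rows tested. The 10 genes and the other glutathione transferases lie mostly left of the band, while glutathione synthesis genes and NRF2 regulators lie mostly within it or to its right.

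Promoter windows from RefSeq (GRCm38.p6), reaching from 250 bases before to 50 bases after a RefSeq gene start, of which a gene can have several, were found for 8 of the 10 genes, as 11 windows. They were searched on both strands for TGACNNNGC, the core of the antioxidant response element, and for TGACTCA, the AP-1 site, and the motifs can overlap where TGACTCA is followed by GC. TGACNNNGC was present in 1 of the 11 windows (Txnrd1) and in 4071 of all 32851 windows (12.4%). TGACTCA was present in 1 of the 11 windows (Gstp1) and in 1709 of all windows (5.2%). A match is a description, and neither other forms of the elements nor elements outside these windows were searched. The stretches around the matches are shown in the direction of each gene, with the match in capitals on the opposite strand, because Txnrd1 was the steadiest gene over the libraries and Gstp1 and Gstp2 carry the zeros. They are Txnrd1 at chr10:82859069-82859167 on the plus strand, Gstp1 at chr19:4037935-4038031 and Gstp2 at chr19:4042259-4042355 on the minus strand.
Txnrd1: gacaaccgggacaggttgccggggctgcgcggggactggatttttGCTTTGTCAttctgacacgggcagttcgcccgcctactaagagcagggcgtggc
Gstp1: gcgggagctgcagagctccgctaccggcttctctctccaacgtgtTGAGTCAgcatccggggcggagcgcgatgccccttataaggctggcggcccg
Gstp2: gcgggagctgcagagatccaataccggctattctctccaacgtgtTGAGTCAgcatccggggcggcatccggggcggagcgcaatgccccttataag

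Counted from the RefSeq start of each window, the match began 92 bases before it in Txnrd1 (start at base 82859206), 74 in Gstp1 (base 4037912) and 89 in Gstp2 (base 4042221). These starts are not the outer ends of the GENCODE spans, and the Txnrd1 start lies within the gene span given above.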

How the data were processed

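RNA from the mucosa of 6 mice (3 KO, 3 WT) was sequenced by the authors as 50 bp single-end reads, mapped to mm10 with HISAT2 and quantified with StringTie; versions are not given in the sources used here. The deposited FPKM values were used as given. They hold no counts, so the depth behind a value is unknown. The FPKM of a library summed to 393152, 465901 and 421135 in KO and to 483474, 495362 and 473383 in WT. Every KO sum lay below every WT sum, and the main fit did not scale the libraries. The fold changes and p-values of the authors were not used.

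In the deposited table gene identifiers stood beside the values of other genes, and they were restored from the ranks of the identifiers and rows. StringTie writes few decimals for genes with 1 transcript: after restoring, 99.7% of 3649 such genes had at most 6 decimals against 5.80% of 8748 genes with several, and as deposited the shares were 33.9% and 34.3%. Gstp1 and Gstp2, with 9 and 6 annotated transcripts, had 6 decimals and so fell with the 5.80%. The other genes of the set with several transcripts had 8 or 9 decimals. The decimals therefore do not back the restored names of Gstp1 and Gstp2. The names of the 10 genes rest on this step, and 10303 rows without a settled name entered the tests unnamed.

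A filter dropped the 9611 rows that were below 1 FPKM in at least 5 libraries and left 13089 to be tested. log2(FPKM + 1) was fitted with limma 3.58.1 (R 4.3.3) with a mean-variance trend, KO against WT, with no covariates and Benjamini-Hochberg adjustment over all rows. The pseudocount of 1 understates changes of low genes. The script was also run on simulated data with known changes. How many of those it found is not given here, so the share of true changes it would miss is left unstated. Exact permutation tests were two-sided. The labels do not say more than that each library is a separate sample of its group. The 10 genes and the other lists were chosen with earlier results of these data known. Named beside the 10 genes were, of each list, the 3 with the highest mean FPKM and up to 3 with the lowest p under 0.05, Nfe2l2, Keap1, Gsta2, Gstp2 and the 5 rows most like the mean of the set. Genes called without overlap, Cbr3, Me1 and the further copies were named after their values were seen.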

Additional observations from a re-analysis of the deposited data

How the results depend on the processing

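The 15 alternatives covered pseudocount, filter, scaling, trend, weights and left-out libraries. Of 150 values of single genes under them, 141 kept direction and side of the threshold. Over all rows 1 row was called; array weights gave 2, pseudocounts of 0.1 and 0.01 gave 0, leaving out 1 library gave 0 to 1184 (the highest without K82S, 51 higher and 1133 lower), and leaving out W83S and K82S together gave 1111 (42 higher and 1069 lower). Of the 10 genes, 1 (Akr1b8) was called without W83S and K82S together, and 0 under the others. Leaving out 1 library gave 4 to 7 genes without overlap, with 7 when K86S was left out, against 4 with all, while the share of all rows with all KO below was 11.3% with all, 15.5% without K86S, 17.4% without W89S, 20.7% without W83S and 32.3% without K82S. Either scaling left 3. The median log2 fold change ranged from -1.54 to -0.64 when 1 library was left out. Estimates near 0 changed sign: Gclc to -0.073 without K86S and -0.11 without W90S (0.38 without K82S), Gstm1 to 0.11 without K82S (-1.17 without K86S) and 0.26 without W83S and K82S, Gstm3 to 0.11 without both, and Txnrd1 to 0.022 by median of ratios, 0.11 at equal sums and 0.0011 without K82S (-0.17 without K86S). The cause was not tested. Scaling to equal sums moved the median of all rows from -0.06 to 0.083 and that of the 10 genes from -1.03 to -0.85. No paired analysis was possible because the labels give the 2 groups no shared pair numbers, although the study speaks of matched samples. With no counts deposited, how far depth limits low genes such as Akr1b8 is unknown.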
